A study of Mus musculus with 12 samples.

Results

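The genes described here are 10 transcription factors of mesenchymal lineages, chosen by symbol: Hand2, Tcf21, Gata4, Gata6, Irx1, Lhx2, Nr2f1, Nr2f2, Foxf1 and Plagl1. All 10 had a row among the 15720 gene identifiers of the deposited expression table. RNA was sequenced from EMS404 cells, a mouse hepatic stellate cell line of C57Bl6 origin that was immortalised with SV40 and carries human TLR4. All 4 groups shared that background and each held 3 libraries. The groups were Bmal1 siRNA plus TGFb, scrambled siRNA plus TGFb, Bmal1 siRNA plus vehicle, and scrambled siRNA plus vehicle. TGFb was given at 10 ng/mL, 48 hours after transfection, and the cells were kept in it for 24 hours. Each siRNA was used in 1 cell line, so the values describe EMS404 and not stellate cells of an animal. The study's text calls the triplicates biological, while no label ties a library to a separate culture, so p-values measure the spread between these libraries. The design asks how the core clock factor Bmal1, encoded by Arntl, bears on the response of stellate cells to TGFb.

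Hepatic stellate cells store vitamin A in healthy liver and become collagen-producing myofibroblasts when TGFb signals through its receptors and Smad proteins. They descend from the mesoderm of the septum transversum, and several of the factors listed here are known as marks of that origin. In mice, loss of Lhx2, or of Gata4 in the septum transversum mesenchyme, is followed by liver fibrosis, and reduced Foxf1 is known to blunt stellate cell activation after injury.

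Values are FPKM, fragments per kilobase of transcript scaled to the mapped fragments of the library, so levels of different genes can be set side by side per length. Fitted changes are differences of log2(FPKM + 1), which understate the change of genes at low FPKM. A gene was called changed at a Benjamini-Hochberg adjusted p under 0.05 in limma over 11208 genes, those averaging 0.5 FPKM or more. Tcf21 was under that mean, so 9 of the 10 factors were tested.

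The 12 libraries had FPKM totals of 445472 to 483957, 13673 to 13975 identifiers above 0 and, from the steps of low values, about 27500000 to 28500000 counted fragments. In the first principal component of all tested genes, 70.98% of the variance, the second library of Bmal1 siRNA plus TGFb lay at -5.131, while the other 2 of its group lay at 12.988 and 8.398, the scrambled TGFb libraries at 27.16 to 29.847, and the 6 vehicle libraries at -17.76 to -15.425. Some of the values that leaving it out moved are given with and without it below. Arntl averaged 4.35 FPKM with Bmal1 siRNA plus TGFb and 10.7 FPKM with scrambled siRNA plus TGFb, and 3.79 FPKM with Bmal1 siRNA plus vehicle and 5.18 FPKM with scrambled siRNA plus vehicle. It was called lower with Bmal1 siRNA under TGFb (log2 change -1.13, limma adjusted p = 1.38e-06) and under vehicle (-0.37, adjusted p = 0.049). The call under vehicle was close to the threshold, and Arntl was not examined with other settings or with libraries left out. Of 20 stellate cell markers, 17 had a row and 8 passed the filter. Among the defining ones, Gfap was at 0 to 0.04 FPKM, Ngfr at 0.12 to 0.23 FPKM and Des at 0.52 to 1.23 FPKM over all 12 libraries, while Pdgfrb, Pdgfra, Cygb and Dcn were above 10 FPKM in every library. Lrat and Reln were not analysed here. Of the stellate markers, then, some defining ones were near 0, and Tcf21, a factor known for quiescent stellate cells, was also close to 0.

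In cells with scrambled siRNA plus vehicle the order of the levels was Hand2, Gata6, Nr2f2, Irx1, Gata4, Lhx2, Plagl1, Foxf1, Nr2f1 and Tcf21. Hand2 averaged 127 ± 8.31 FPKM (SD, n = 3, as for all group means below), at the 96.3rd percentile of the 15720 identifiers, and Gata6 averaged 116 ± 4.15 FPKM, at the 95.8th. Nr2f2 at 36.8 ± 1.80 FPKM and Irx1 at 27.5 ± 2.18 FPKM followed. The ranges over libraries of neighbours in this order overlapped for Gata4, Lhx2, Plagl1 and Foxf1 and did not overlap between the other neighbours. Nr2f1 at 0.38 to 0.48 FPKM and Tcf21 at 0.03 to 0.10 FPKM were far under the rest. At the depth estimated above, Nr2f1 stood on about 52.8 to 100.5 fragments per library and Tcf21 on 10.5 at most, so neither supports a fine comparison.

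**Figure D1:**
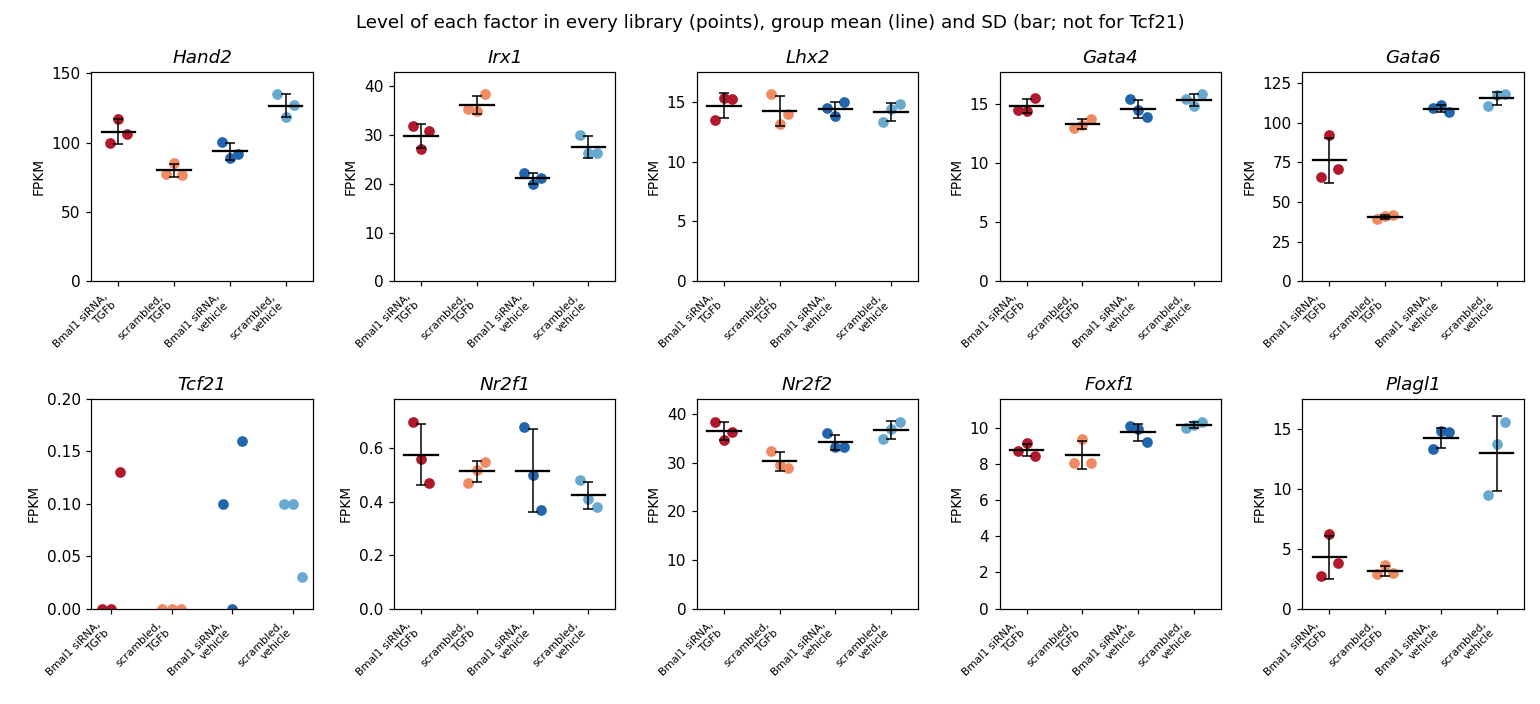
Level in FPKM (vertical axis, linear, from 0) of each of the 10 factors in the 12 libraries, with Bmal1 siRNA plus TGFb, scrambled siRNA plus TGFb, Bmal1 siRNA plus vehicle and scrambled siRNA plus vehicle from left to right. Points are libraries, lines group means and bars SD (n = 3), with no line or bar for Tcf21. Gata6 lies at 39.4 to 41.6 FPKM with scrambled siRNA plus TGFb and at 65.7 to 92.1 FPKM with Bmal1 siRNA plus TGFb.

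The 9 tested factors split into those lower, higher and not called with TGFb. With scrambled siRNA, TGFb lowered Plagl1, Gata6, Hand2, Nr2f2, Foxf1 and Gata4, and raised Irx1, while Lhx2 and Nr2f1 were not called. So 6 were called lower and 1 higher, where 29.1% of all genes tested were called lower, 16.4% higher and 45.5% either way. After median-of-ratios scaling, 49.8% of the called genes were higher, against 36.1% on the deposited scale, so the split over all genes depends on the scale. The 7 called factors were also those whose groups did not overlap, which held for 55% of all genes. The median change of the 9 was -0.24, and that of all genes -0.05.

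With Bmal1 siRNA, TGFb lowered Plagl1 and Gata6 and raised Irx1, which makes 2 lower and 1 higher of 9, where 10.1% and 8.9% of all genes were called and 19% either way. Groups did not overlap for 4 of the 9, the 3 called and Foxf1, and for 35.4% of all genes. Equal totals put 39.6% of the called genes higher, against 46.9% on the deposited scale. The median change of the 9 was 0.02, and that of all genes 0.0035. Under TGFb, Bmal1 siRNA against scrambled siRNA raised Gata6, Hand2 and Nr2f2 and lowered Irx1, so 3 were higher and 1 lower, where 16% and 7.16% of all genes were called and 23.2% either way. Groups did not overlap for 5 of the 9, the 4 called and Gata4, and for 39.2% of all genes. Here 69.1% of all called genes were higher on the deposited scale, 44.9% after median-of-ratios scaling, 58.9% with equal totals and 53.3% after quantile normalization. The median change of the 9 was 0.14, and that of all genes 0.06.

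Under vehicle, Bmal1 siRNA against scrambled siRNA lowered Hand2 and Irx1 and raised none of the 9, where 0.366% of all genes were called lower, 0.294% higher and 0.66% either way. These were also the 2 whose groups did not overlap, which held for 31.7% of all genes. Over all genes that comparison called 74 genes in limma and held 2433 at an unadjusted p under 0.05. With equal totals, 61.2% of the called genes were higher, against 44.6% on the deposited scale. The test of the difference between both TGFb responses, the interaction of siRNA and TGFb, called Hand2, Gata6 and Nr2f2. All 3 were positive, where 8.86% of all genes were called positive, 5.52% negative and 14.4% either way. The share of positive calls over all genes was 61.6% on the deposited scale, 42.1% after median-of-ratios scaling, 44.4% with equal totals and 49.4% after quantile normalization. The 2 TGFb comparisons share no library, while each comparison shares a group with 2 others, so the counts are not independent of each other.

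**Figure D2:**
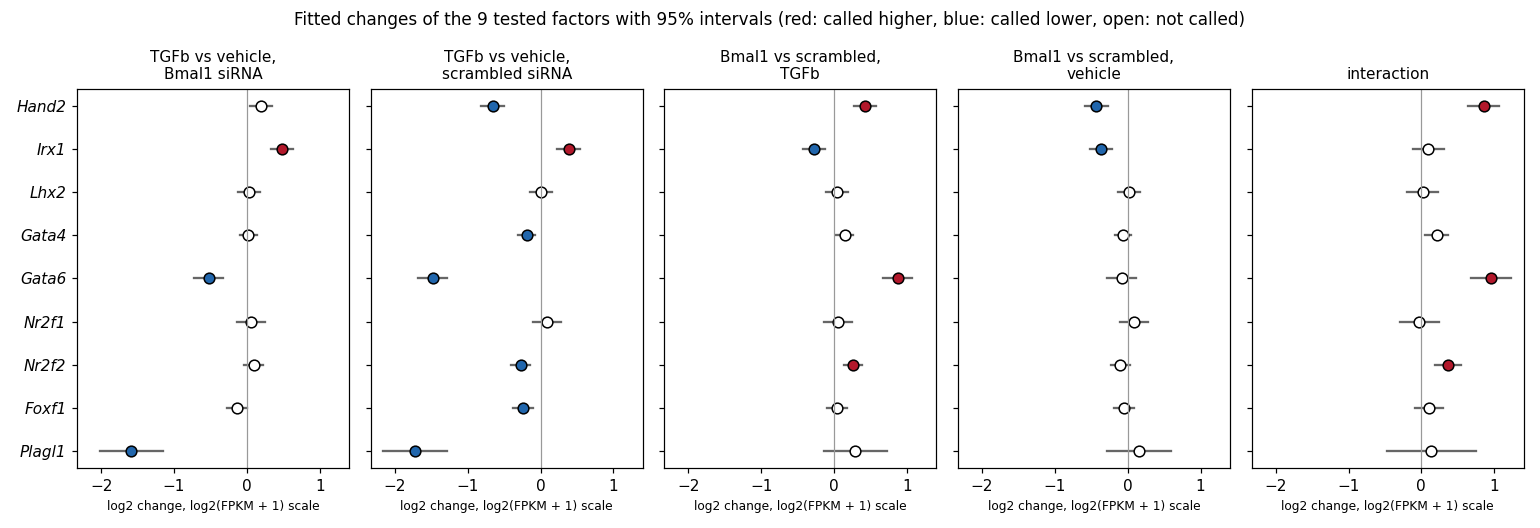
Fitted log2 change, on the log2(FPKM + 1) scale, with its 95% interval for the 9 tested factors in 4 comparisons and the interaction. Filled points are called, red higher and blue lower, and open points are not. Hand2 lies at 0.20 for TGFb with Bmal1 siRNA and at -0.66 for TGFb with scrambled siRNA.

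Hand2 is a basic helix-loop-helix factor of heart, limb and lateral plate mesenchyme, and its regulatory sequences are used in zebrafish to mark stellate cells. It had 99.6, 118 and 106 FPKM with Bmal1 siRNA plus TGFb, and 77.5, 85.6 and 77.1 FPKM with scrambled siRNA plus TGFb. Under vehicle it had 101, 89.3 and 91.6 FPKM with Bmal1 siRNA, and 135, 118 and 127 FPKM with scrambled siRNA. The siRNA groups did not overlap under either treatment, and their order was opposite under both: Bmal1 siRNA gave the higher Hand2 under TGFb and the lower under vehicle. With TGFb, the log2 change of Hand2 was 0.20 in Bmal1 siRNA cells and was not called (limma adjusted p = 0.073), whereas in scrambled siRNA cells Hand2 fell by 36.9% (-0.66 ± 0.0713 SE, adjusted p = 7.74e-06). Bmal1 siRNA raised it by 34.7% under TGFb (0.42, adjusted p = 0.00118), and under vehicle Hand2 fell by 26.0% with it (-0.43, adjusted p = 0.0253).

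The TGFb responses of Hand2 differed by 0.85 (95% interval 0.64 to 1.07, adjusted p = 0.000188). Without the second library of Bmal1 siRNA plus TGFb that difference was 0.79 (adjusted p = 0.000152), and the change with Bmal1 siRNA under TGFb was 0.36 (adjusted p = 0.00354). The call under vehicle was lost in 5 of 12 fits that left out 1 library, with adjusted p of 0.0525 to 0.194. These were the fits without the second or the third of Bmal1 siRNA plus vehicle, the first or the third of scrambled siRNA plus vehicle, or the third of scrambled siRNA plus TGFb. It was also lost with no filter on low values (adjusted p = 0.0611). With Bmal1 siRNA, the TGFb change was called without the first TGFb library (0.25, adjusted p = 0.0457) or without the first vehicle library (0.25, adjusted p = 0.0456). Without the second TGFb library of Bmal1 siRNA it was 0.13 and was not called (limma adjusted p = 0.171). Hand2 shares 461 exon bases, 19.6% of its exons, with the antisense transcript Hand2os1. The sources used here do not say whether counting used the strand, so reads from the shared bases cannot be assigned to either.

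Hand2 lies on chromosome 8 (mm10, chr8:57320983-57324633, plus strand). The 250 bases before its RefSeq start (GRCm38.p6, chr8:57320733-57320982, plus strand) are shown because its siRNA groups stood in opposite order under TGFb and vehicle, and those of Plagl1 (chr10:13090582-13090831, plus strand) because it fell furthest with TGFb. The window of Nr2f2 (chr7:70366747-70366996, minus strand) is that of the third factor with a called difference between the TGFb responses, Gata6, the second, not being shown. Capitals mark matches on either strand to AGATAA, which is the motif of GATA factors, to CACGTG, which is the E-box known to be bound by Bmal1 with its partner Clock, or to CAGACA, a Smad box.
Hand2: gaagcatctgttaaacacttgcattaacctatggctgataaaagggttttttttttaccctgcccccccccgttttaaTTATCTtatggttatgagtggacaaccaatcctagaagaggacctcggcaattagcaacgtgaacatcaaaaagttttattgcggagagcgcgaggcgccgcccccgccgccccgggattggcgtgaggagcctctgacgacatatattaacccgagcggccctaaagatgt
Plagl1: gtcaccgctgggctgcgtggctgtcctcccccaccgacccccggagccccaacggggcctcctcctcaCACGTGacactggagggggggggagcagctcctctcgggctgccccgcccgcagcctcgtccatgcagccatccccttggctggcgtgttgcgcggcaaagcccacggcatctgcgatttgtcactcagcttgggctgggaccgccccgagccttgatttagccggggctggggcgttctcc
Nr2f2: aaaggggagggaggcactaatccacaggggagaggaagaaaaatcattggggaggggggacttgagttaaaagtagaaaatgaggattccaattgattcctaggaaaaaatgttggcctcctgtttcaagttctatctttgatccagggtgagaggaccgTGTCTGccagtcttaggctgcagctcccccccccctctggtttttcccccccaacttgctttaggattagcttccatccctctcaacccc
The windows were matched for 6 of the 10 factors. Plagl1 has 25 annotated transcripts, and its window is that of 1 start. The bases directly after the RefSeq start of Nr2f2 were in none of its annotated transcripts. On the minus strand, its annotated gene begins at chr7:70366735. Hand2 holds AGATAA on the minus strand, 172 bases before the start, as do 9.99% of 32851 RefSeq promoters of that length on either strand. Plagl1 holds CACGTG 182 bases before the start, found in 6.02% of promoters, and Nr2f2 holds CAGACA on the strand opposite to the gene, 90 bases before the start, found in 17.1%. Neither the Hand2 nor the Nr2f2 window holds CACGTG. The Smad palindrome GTCTAGAC, present in 0.167% of promoters, is in none of the 6 factors' windows. These are letter matches and say nothing of binding.

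Tcf21, a helix-loop-helix factor known for quiescent stellate cells and for kidney and heart mesenchyme, was at 0, 0 and 0.13 FPKM with Bmal1 siRNA plus TGFb and listed at 0 in all 3 libraries of scrambled siRNA plus TGFb. It was at 0.10, 0 and 0.16 FPKM with Bmal1 siRNA plus vehicle and at 0.10, 0.10 and 0.03 FPKM with scrambled siRNA plus vehicle. With scrambled siRNA, TGFb and vehicle did not overlap, and the other groups did, on so few fragments that no difference is read from them.

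Gata6 and Gata4 are zinc finger factors of heart, gut and liver mesoderm that bind the same core sequence. Gata6 had 65.7, 92.1 and 71.1 FPKM with Bmal1 siRNA plus TGFb, and 39.4, 41.3 and 41.6 FPKM with scrambled siRNA plus TGFb. Under vehicle it had 109, 111 and 107 FPKM with Bmal1 siRNA, and 111, 118 and 118 FPKM with scrambled siRNA. The siRNA groups overlapped under vehicle, all 6 TGFb libraries were under all 6 vehicle libraries, and Bmal1 siRNA plus TGFb lay between the scrambled TGFb and the vehicle libraries. With TGFb, Gata6 fell by 30.01% in Bmal1 siRNA cells (log2 change -0.52, adjusted p = 0.00163) and fell by 64.7% in scrambled siRNA cells (-1.48 ± 0.0906 SE, adjusted p = 6.58e-08). Under TGFb, Bmal1 siRNA gave 1.87 times the Gata6 level of scrambled siRNA (0.87, adjusted p = 3.27e-05), while under vehicle the difference of -0.08 was not called (95% interval -0.28 to 0.11, adjusted p = 0.612).

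The Gata6 responses to TGFb differed by 0.96 (95% interval 0.68 to 1.23, limma adjusted p = 0.000437). The library of Bmal1 siRNA plus TGFb at 92.1 FPKM is the one that stood apart over all genes. Without it the difference was 0.81 (adjusted p = 9.43e-06), the change with Bmal1 siRNA under TGFb was 0.73 (adjusted p = 1.03e-06) and the TGFb change with Bmal1 siRNA was -0.67.

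Gata4 moved far less than Gata6. It had 14.5, 14.4 and 15.4 FPKM with Bmal1 siRNA plus TGFb, and 12.9, 13.2 and 13.7 FPKM with scrambled siRNA plus TGFb. Under vehicle it had 15.4, 14.5 and 13.9 FPKM with Bmal1 siRNA, and 15.4, 14.8 and 15.8 FPKM with scrambled siRNA. Scrambled siRNA plus TGFb was the one group under all other libraries. Gata4 fell by 13.3% with TGFb in scrambled siRNA cells (log2 change -0.19, adjusted p = 0.00961), a call lost with median-of-ratios scaling (adjusted p = 0.058) and with equal totals (0.0513). The rest of its comparisons were not called, with 0.14 for Bmal1 siRNA under TGFb (adjusted p = 0.0666) and 0.21 for the interaction (0.0803). Both were called with array weights, at 0.17 (adjusted p = 0.00443) and 0.25 (adjusted p = 0.00583). As a ratio of FPKM, Gata6 stood at 5.18 ± 1.05 times Gata4 with Bmal1 siRNA plus TGFb and 3.07 ± 0.054 times with scrambled siRNA plus TGFb, against 7.49 ± 0.335 and 7.55 ± 0.389 times in the Bmal1 and scrambled siRNA vehicle groups.

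Irx1, an Iroquois homeobox factor known for patterning of lung, heart and limb, was the one factor called higher with TGFb. It had 31.8, 27.1 and 30.7 FPKM with Bmal1 siRNA plus TGFb, and 35.4, 34.9 and 38.3 FPKM with scrambled siRNA plus TGFb. Under vehicle it had 22.1, 20.0 and 21.1 FPKM with Bmal1 siRNA, and 30.04, 26.2 and 26.3 FPKM with scrambled siRNA. Bmal1 siRNA lay under scrambled siRNA with each treatment and TGFb over vehicle with each siRNA, with no overlap in any of these 4 comparisons. TGFb raised Irx1 by 41.5% with Bmal1 siRNA (0.48, adjusted p = 0.000618) and by 31.5% with scrambled siRNA (0.38, adjusted p = 0.00062).

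The Irx1 responses to TGFb differed by 0.10 (95% interval -0.12 to 0.31), which was not called. With Bmal1 siRNA, Irx1 fell by 17.5% under TGFb (log2 change -0.27, limma adjusted p = 0.0147) and fell by 23.4% under vehicle (-0.37, adjusted p = 0.0384). Both calls were close to the threshold. The one under TGFb was lost without the second library of Bmal1 siRNA plus TGFb (-0.21, adjusted p = 0.0542) and without the third of scrambled siRNA plus TGFb (-0.23, adjusted p = 0.065). The one under vehicle was lost in 8 of 12 fits that left out 1 library, with adjusted p of 0.0531 to 0.238: each of the 3 of scrambled siRNA plus vehicle, the second or the third of Bmal1 siRNA plus vehicle, the second or the third of scrambled siRNA plus TGFb, and the third of Bmal1 siRNA plus TGFb. It was lost too with no filter on low values (0.0721), with equal totals (0.0502) and without limma's trend (0.0528).

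Lhx2, a LIM homeobox factor whose loss activates stellate cells in mice, showed no called change. It had 13.5, 15.3 and 15.2 FPKM with Bmal1 siRNA plus TGFb, 15.6, 13.1 and 14 FPKM with scrambled siRNA plus TGFb, 14.4, 13.8 and 14.9 FPKM with Bmal1 siRNA plus vehicle, and 13.3, 14.4 and 14.8 FPKM with scrambled siRNA plus vehicle. All 4 groups overlapped, and group means ran from 14.2 to 14.7 FPKM. For TGFb with scrambled siRNA the 95% interval of the log2 change was -0.15 to 0.16, and for the interaction it was -0.20 to 0.24.

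Nr2f1 and Nr2f2, also called COUP-TFI and COUP-TFII, are orphan nuclear receptors, and Nr2f2 is known for venous and mesenchymal identity. Nr2f2 had 38.4, 34.8 and 36.4 FPKM with Bmal1 siRNA plus TGFb, and 32.4, 29.6 and 28.9 FPKM with scrambled siRNA plus TGFb. Under vehicle it had 36.1, 33.3 and 33.3 FPKM with Bmal1 siRNA, and 34.9, 36.9 and 38.5 FPKM with scrambled siRNA. Again scrambled siRNA plus TGFb was the group under all other libraries. The log2 change of Nr2f2 with TGFb was 0.09 in Bmal1 siRNA cells, which was not called (adjusted p = 0.308), while in scrambled siRNA cells Nr2f2 fell by 17.6% (-0.27 ± 0.0587 SE, adjusted p = 0.00204). Bmal1 siRNA raised it by 20.6% under TGFb (0.26, adjusted p = 0.00689) and gave -0.10 under vehicle, which was not called (adjusted p = 0.324) except with array weights (-0.15, adjusted p = 0.0358).

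The Nr2f2 responses to TGFb differed by 0.36 (95% interval 0.18 to 0.54, limma adjusted p = 0.012), a call lost with libraries scaled to equal totals (0.30, adjusted p = 0.0692). Nr2f2 shares 643 exon bases, 7.46% of its exons, with B130024G19Rik on the other strand. Nr2f1 had 0.70, 0.56 and 0.47 FPKM with Bmal1 siRNA plus TGFb, 0.47, 0.52 and 0.55 FPKM with scrambled siRNA plus TGFb, 0.68, 0.50 and 0.37 FPKM with Bmal1 siRNA plus vehicle, and 0.48, 0.41 and 0.38 FPKM with scrambled siRNA plus vehicle. Its groups overlapped in all 4 comparisons, it passed the filter narrowly, and no comparison was called.

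Foxf1, a forkhead factor of gut, lung and liver mesenchyme, had 8.72, 9.12 and 8.45 FPKM with Bmal1 siRNA plus TGFb, and 8.05, 9.38 and 8.02 FPKM with scrambled siRNA plus TGFb. Its vehicle libraries had 10.1, 9.91 and 9.21 FPKM with Bmal1 siRNA, and 10.0, 10.2 and 10.3 FPKM with scrambled siRNA. TGFb libraries lay under the vehicle libraries of the same siRNA with no overlap, and the siRNA groups overlapped with each treatment. The log2 change with TGFb was not called with Bmal1 siRNA (-0.14, adjusted p = 0.156) and was called with scrambled siRNA (-0.24, or -16.5% of mean FPKM, adjusted p = 0.00787). The difference between these responses was 0.10 and was not called (95% interval -0.09 to 0.30).

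Plagl1, an imprinted zinc finger factor known in mice to regulate other imprinted genes, fell furthest of the 9. It had 2.75, 6.26 and 3.83 FPKM with Bmal1 siRNA plus TGFb, and 2.86, 3.63 and 3.01 FPKM with scrambled siRNA plus TGFb. Its vehicle libraries had 13.3, 14.8 and 14.7 FPKM with Bmal1 siRNA, and 9.52, 13.8 and 15.6 FPKM with scrambled siRNA. All 6 TGFb libraries were under all 6 vehicle libraries, and the siRNA groups overlapped with each treatment. With TGFb, Plagl1 fell by 70.05% in cells with Bmal1 siRNA (log2 change -1.59, adjusted p = 0.000227) and fell by 75.6% in cells with scrambled siRNA (-1.72 ± 0.201 SE, adjusted p = 1.46e-05).

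Unlike Gata6, Plagl1 had no called difference between its TGFb responses, which was 0.14 with a wide 95% interval of -0.48 to 0.75 (limma adjusted p = 0.791). The library of Bmal1 siRNA plus TGFb at 6.26 FPKM is again the second one. Without it the TGFb change with Bmal1 siRNA was -1.84 and the interaction -0.12. Bmal1 against scrambled siRNA gave 0.29 under TGFb (adjusted p = 0.315) and 0.15 under vehicle (adjusted p = 0.673).

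**Figure D3:**
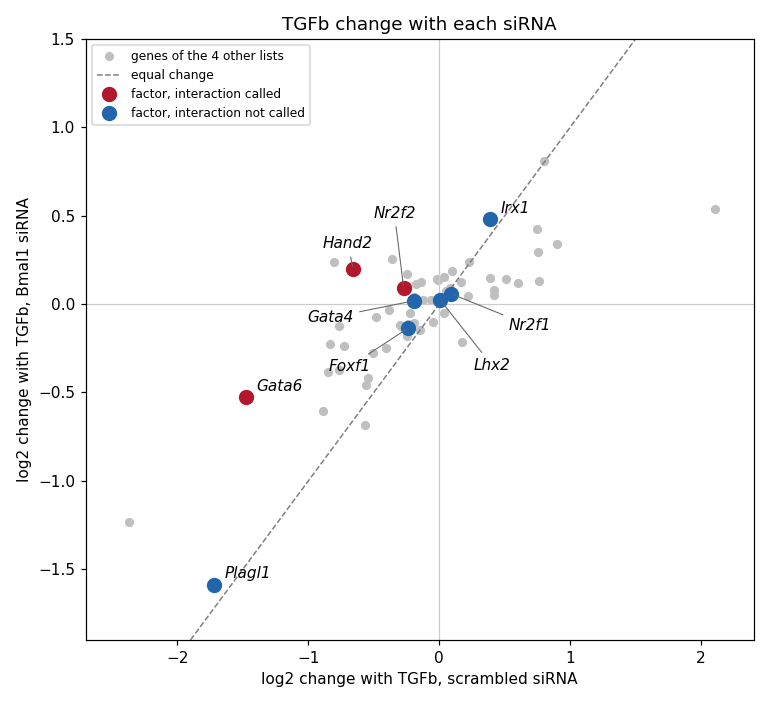
Fitted log2 change with TGFb in cells with Bmal1 siRNA (vertical axis) against that in cells with scrambled siRNA (horizontal axis), on the log2(FPKM + 1) scale. Red points are factors with a called interaction, blue points factors without, and grey points the tested genes of the 4 gene lists described below. The dashed line is an equal change, on which Plagl1 (-1.59 and -1.72) and Irx1 (0.48 and 0.38) lie closest among the factors called with both siRNAs.

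The order of levels moved with these changes. With Bmal1 siRNA plus TGFb and with scrambled siRNA plus TGFb, Hand2 stood at 1.43 ± 0.134 and 1.96 ± 0.109 times Gata6, and in Bmal1 and scrambled siRNA vehicle cells at 0.862 ± 0.0602 and 1.10 ± 0.109 times. Gata6 led in the 3 Bmal1 siRNA vehicle libraries only, and Hand2 in the other 3 groups. Irx1 was above Nr2f2 with scrambled siRNA plus TGFb and below it in the other 3 groups. Plagl1 overlapped with Gata4 and Lhx2 under vehicle and lay under Foxf1 with TGFb, with no overlap between Plagl1 and Foxf1 with either siRNA.

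Values of other cell types' markers moved with TGFb too, and their part in the factors' changes was not tested. In bulk samples, fewer cells of a type and less RNA per cell cannot be told apart. The summed FPKM of 10 activated stellate cell markers was 6412 to 6970 with Bmal1 siRNA plus TGFb and 7727 to 8115 with scrambled siRNA plus TGFb, against 5418 to 5703 with Bmal1 siRNA plus vehicle and 5018 to 5298 with scrambled siRNA plus vehicle. TGFb raised 6 of the 9 tested ones with Bmal1 siRNA and 7 with scrambled siRNA, and lowered none. For Acta2, smooth muscle actin, the log2 change was 1.499 with Bmal1 siRNA and 2.12 with scrambled siRNA. Under TGFb, Bmal1 siRNA lowered 6 of the 9, under vehicle it raised 1, and the interaction was negative for 3. Of 10 genes known as TGFb targets, TGFb raised 6 with Bmal1 siRNA and 10 with scrambled siRNA. Pmepa1, a feedback inhibitor, had 42.8, 19.2 and 34.9 FPKM with Bmal1 siRNA plus TGFb, and 166, 149 and 156 FPKM with scrambled siRNA plus TGFb. All 10 were lower with Bmal1 siRNA under TGFb and had a negative interaction, and none was called under vehicle, where 2 were higher at an unadjusted p under 0.05.

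The stellate cell markers summed to 226 to 450 FPKM with Bmal1 siRNA plus TGFb and 177 to 211 FPKM with scrambled siRNA plus TGFb, against 504 to 606 FPKM and 428 to 561 FPKM in the Bmal1 and scrambled siRNA vehicle groups. The highest TGFb value is again the second library of Bmal1 siRNA, in which Dcn stood at 297 FPKM. Most of the vehicle sums was Dcn, which fell with TGFb by 53.2% with Bmal1 siRNA and by 80.7% with scrambled siRNA. Of the 8 tested, TGFb raised 1 and lowered 3 with Bmal1 siRNA and raised 1 and lowered 4 with scrambled siRNA. The raised one was Pdgfrb, by log2 changes of 0.50 with Bmal1 siRNA and 1.14 with scrambled siRNA. Without that library, TGFb raised 1 and lowered 5 with Bmal1 siRNA. Bmal1 siRNA raised 2 and lowered 1 under TGFb and changed none under vehicle, where 1 was higher and 1 lower at an unadjusted p under 0.05, and the interaction was positive for 1 and negative for 1. The mesothelial markers, which share Wt1 with a list below, summed to 194 to 296 and 197 to 254 FPKM with Bmal1 and scrambled siRNA plus TGFb, against 467 to 505 and 428 to 483 FPKM in the matching vehicle groups. TGFb lowered 7 of the 10 tested with Bmal1 siRNA, and lowered 8 and raised 2 with scrambled siRNA. Bmal1 siRNA raised 1 and lowered 1 under TGFb, and the interaction was negative for 1.

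Hepatocyte markers summed to 48.1 to 107 and 40.6 to 59.0 FPKM with Bmal1 and scrambled siRNA plus TGFb, against 209 to 244 and 193 to 213 FPKM under vehicle, nearly all of it transferrin, Trf. Both tested ones, Trf and Ahsg, were lower with TGFb with each siRNA, and Ahsg was higher with Bmal1 siRNA under TGFb. Of 4 tested portal fibroblast markers, TGFb raised 3 with each siRNA and lowered 1, Cd34, with scrambled siRNA, and Bmal1 siRNA lowered 3 and raised 1 under TGFb, with the same split in the interaction. Endothelial markers summed to 1.16 to 3.39 FPKM over all 12 libraries, with Pecam1 at 0.01 to 0.13 FPKM, and the 1 tested was not called in any comparison. Leukocyte markers summed to 3.51 to 5.58 FPKM. Of 2 tested, TGFb raised Fcer1g and lowered Cd68 with scrambled siRNA, and Bmal1 siRNA lowered Fcer1g under TGFb. Between siRNAs under vehicle, limma called no gene of these last 4 lists or of the mesothelial one, where 2 mesothelial and 1 endothelial marker were higher and 1 leukocyte marker lower at an unadjusted p under 0.05.

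Relatives of the 10 factors were mostly silent. Of 25 listed family members, 22 had a row and 9 passed the filter. Hand1, Gata5, Irx6 and Tcf15 were at 0 to 0.04 FPKM in all 12 libraries. Foxf2, the sister gene of Foxf1, was higher than it, with 33.6, 26.7 and 26.7 FPKM in Bmal1 siRNA plus TGFb, 34.1, 27.4 and 28.6 FPKM in scrambled siRNA plus TGFb, 28.8, 23.7 and 24.6 FPKM in Bmal1 siRNA plus vehicle and 40.5, 33.4 and 33.5 FPKM in scrambled siRNA plus vehicle. Under vehicle its Bmal1 siRNA libraries lay under the scrambled ones with no overlap, and the change of -0.46 was not called (adjusted p = 0.0667), nor was Foxf2 in any other comparison. That change was called without the second library of Bmal1 siRNA plus TGFb (adjusted p = 0.0378), in a fit of the vehicle groups alone (0.0369) and with array weights (-0.44, 0.00521). The change with TGFb in scrambled siRNA cells was -0.25 (adjusted p = 0.083). It was called without the first library of Bmal1 siRNA plus TGFb (0.0491) or of scrambled siRNA plus TGFb (-0.34, 0.0301). Without the first of scrambled siRNA plus TGFb the interaction was called too (0.51, 0.0456). Array weights also called both, at -0.23 (limma adjusted p = 0.0199) and 0.36 (0.0166). With replicate number as a block, Foxf2 was called in all comparisons but Bmal1 siRNA under TGFb. Its limma adjusted p was then 0.000428 under vehicle, 0.0111 and 0.000362 for TGFb with Bmal1 and scrambled siRNA, and 0.000788 for the interaction. With scrambled siRNA, TGFb raised Lhx6 (0.80, limma adjusted p = 6.12e-05) and lowered Irx5 (-0.39), Plagl2 (-0.29) and Nr2f6 (-0.14). With Bmal1 siRNA it raised Lhx6 alone (0.81, adjusted p = 0.000358). The Iroquois pair thus differed with scrambled siRNA, where Irx1 was called higher and Irx5 lower.

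Lhx6, a LIM homeobox gene best known from forebrain and jaw, had 7.37, 4.88 and 5.77 FPKM with Bmal1 siRNA plus TGFb and 7.19, 6.07 and 6.62 FPKM with scrambled siRNA plus TGFb. It had 2.97, 3.12 and 2.77 FPKM with Bmal1 siRNA plus vehicle and 3, 3.68 and 3.46 FPKM with scrambled siRNA plus vehicle, so all TGFb libraries were above all vehicle libraries. Its relative Lhx2 had no called change in the same comparisons. Nr2f6, a further COUP-TF-like receptor, was lower with Bmal1 siRNA under vehicle (-0.25, adjusted p = 0.038), the 1 call of the 9 there, and its interaction was 0.26 (adjusted p = 0.0202), while that of Gata3 was -0.39 (adjusted p = 0.0299). Under TGFb none of the 9 was called between siRNAs in limma, nor did any have an unadjusted p under 0.05. The list's medians were -0.03 for TGFb with Bmal1 siRNA and -0.20 with scrambled siRNA, 0.01 for Bmal1 siRNA under TGFb and -0.15 under vehicle, and 0.17 for the interaction. Over all genes the median was 0.0035 for TGFb with Bmal1 siRNA and -0.05 with scrambled siRNA, 0.06 for Bmal1 siRNA under TGFb and 0.0081 under vehicle, and 0.06 for the interaction. Nr2f6 and Gata3 share 1622 and 155 exon bases with other genes, and leaving out 1 library gave 0 to 3 calls for this list under vehicle and for the interaction. The call of Nr2f6 under vehicle was lost in 8 of 12 such fits (adjusted p of 0.0585 to 0.216) and its interaction in 2 (0.055 to 0.0562), while the interaction of Gata3 was lost in 8 (0.0517 to 0.0749). For TGFb with scrambled siRNA, Nr2f6 was not called with median-of-ratios scaling (limma adjusted p = 0.1995), equal totals (0.153) or quantile normalization (0.0785). Its interaction was lost with median-of-ratios scaling (0.0607) and equal totals (0.0776).

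The proteins that work with these factors were mostly expressed. Of 20 listed partners, 16 had a row and 14 were tested. Zfpm1 and Zfpm2, the FOG cofactors of GATA factors, stood at 76.2 to 114 FPKM and 15.2 to 19.5 FPKM over the 12 libraries, and Ldb1, which joins LIM factors into complexes, at 91.9 to 116 FPKM. With scrambled siRNA, TGFb raised Lmo4, a LIM-only protein that binds Ldb1 (0.60, adjusted p = 3.86e-06), and Tcf12, an E protein that pairs with factors such as Hand2 (0.38). It lowered Rxra, the retinoid X receptor (-0.50), and Ssbp4, a partner of Ldb1 (-0.48), among 4 lower. With Bmal1 siRNA it lowered Rxra (-0.28) and Zfpm1 (-0.18) and raised Tcf3, another E protein (0.18).

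Under TGFb, Bmal1 siRNA raised Ssbp2, Ssbp4 and Rxra by log2 changes of 0.21 to 0.22 and lowered Lmo4 (-0.41, limma adjusted p = 0.000435). Without the second library of Bmal1 siRNA plus TGFb the change of Ssbp4 was 0.14 and was not called (adjusted p = 0.127), and that call was lost in 5 of 12 fits that left out 1 library. Median-of-ratios scaling lost the calls of Ssbp4 (0.15, limma adjusted p = 0.145) and Rxra (0.15, 0.0558). Both were lost too in a fit of only the groups compared (0.0838 for Ssbp4 and 0.0613 for Rxra). Lmo4 had 69.9, 64.2 and 74.2 FPKM with Bmal1 siRNA plus TGFb, and 85.6, 95 and 96.9 FPKM with scrambled siRNA plus TGFb. It had 62.8, 66.9 and 61.4 FPKM with Bmal1 siRNA plus vehicle, and 60.6, 60.7 and 60.7 FPKM with scrambled siRNA plus vehicle, so scrambled siRNA plus TGFb was above all others. The interaction was -0.48 for Lmo4, 0.41 for Ssbp4 and 0.23 for Ldb1, and these were the 3 called. That of Ldb1 was lost in 9 of 12 fits that left out 1 library (adjusted p of 0.0517 to 0.0986), and with median-of-ratios scaling (0.17, 0.132), equal totals (0.17, 0.135) or quantile normalization (0.15, 0.134). Ldb1 shares 177 exon bases with another gene. No partner was called under vehicle in limma, where 3 were higher and 3 lower at an unadjusted p under 0.05, with Zfpm1 (-0.21) and Ldb1 (-0.16) the smallest p. The medians of the 14 were 0.03 for TGFb with Bmal1 siRNA and -0.01 with scrambled siRNA, 0.06 for Bmal1 siRNA under TGFb and -0.0077 under vehicle, and 0.08 for the interaction. Without the second library of Bmal1 siRNA plus TGFb, TGFb with Bmal1 siRNA called 5 partners in place of 3, and without the third of that group, or the second of Bmal1 siRNA plus vehicle, it called 1.

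Of 32 other mesenchymal transcription factors, 30 had a row and 20 were tested. With scrambled siRNA, TGFb raised 9 and lowered 7 of them, with Foxc2, Nfatc4 and Meox1 among the higher and Twist1 among the lower. Foxc2, a forkhead factor of vessels and mesenchyme, had 1.39, 0.88 and 1.22 FPKM with Bmal1 siRNA plus TGFb, 6.19, 4.76 and 5.78 FPKM with scrambled siRNA plus TGFb, 0.35, 0.63 and 0.49 FPKM with Bmal1 siRNA plus vehicle, and 0.64, 0.41 and 0.53 FPKM with scrambled siRNA plus vehicle. Its log2 change with TGFb was 0.54 with Bmal1 siRNA and 2.10 with scrambled siRNA, and the difference of -1.57 was called (limma adjusted p = 7.52e-05). Twist1, a helix-loop-helix factor like Hand2, had 13.6, 14.2 and 14.2 FPKM with Bmal1 siRNA plus TGFb, 10.2, 12 and 9.86 FPKM with scrambled siRNA plus TGFb, 17.2, 15.2 and 17.1 FPKM with Bmal1 siRNA plus vehicle, and 21.98, 18.2 and 19.3 FPKM with scrambled siRNA plus vehicle. TGFb lowered Twist1 with scrambled siRNA (-0.84, adjusted p = 2.71e-06), and the interaction was 0.61 (adjusted p = 0.00414).

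With Bmal1 siRNA, TGFb raised 4 and lowered 2 of the 20, among them Klf4 (0.43), a zinc finger factor of differentiation, and Wt1 (-0.46) and Prrx1 (-0.37), known for mesothelial and limb mesenchyme. Without the second library of Bmal1 siRNA plus TGFb it raised 5 and lowered 3. Under TGFb, Bmal1 siRNA raised 3 and lowered 6, with Prrx1 (0.64) and Osr1 (0.56), a zinc finger factor of intermediate mesoderm, higher and Foxc2 (-1.61) and Meox1 (-0.66) lower. The interaction was positive for 5 and negative for 5, including Osr1 (0.61) and Meox1 (-0.64), and 6 in all were called without the first, or the second, library of Bmal1 siRNA plus vehicle. None was called under vehicle in limma, where 1 was higher and 4 lower at an unadjusted p under 0.05, with Hlx (-0.35, adjusted p = 0.0637) and Prrx1 (0.26, adjusted p = 0.116) nearest. The list's medians were 0.09 for TGFb with Bmal1 siRNA and -0.05 with scrambled siRNA, 0.01 for Bmal1 siRNA under TGFb and -0.03 under vehicle, and 0.02 for the interaction.

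Plagl1 belongs to a set of imprinted genes that are often expressed together in mouse tissues. Of 20 listed genes of that network, 17 had a row and 11 were tested. With Bmal1 siRNA, TGFb lowered 4 and raised none, and with scrambled siRNA it lowered 8 and raised 1. Their median change with TGFb was -0.13 with Bmal1 siRNA and -0.56 with scrambled siRNA, where the median of all genes was 0.0035 with Bmal1 siRNA and -0.05 with scrambled siRNA. Dcn, decorin, which also counts among the stellate cell markers, had 97.2, 297 and 153 FPKM with Bmal1 siRNA plus TGFb, 46.6, 73.3 and 68.6 FPKM with scrambled siRNA plus TGFb, 330.1, 423 and 417 FPKM with Bmal1 siRNA plus vehicle, and 265, 337 and 376 FPKM with scrambled siRNA plus vehicle. TGFb thus lowered Dcn with Bmal1 siRNA (-1.23, and -1.66 without the second TGFb library) and with scrambled siRNA (-2.37), and Mest likewise with Bmal1 (-0.60) and scrambled siRNA (-0.89). Cdkn1c, a cyclin-dependent kinase inhibitor (-0.85), and Peg10 (-0.80) were among the genes lower with scrambled siRNA, and Igf2, a growth factor (-0.69), and Dlk1 (-0.42) among those lower with Bmal1 siRNA.

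Under TGFb, Bmal1 siRNA raised Dcn (1.40), Cdkn1c (0.74) and Peg3 (0.61) of the imprinted genes and lowered none, with a median of 0.22. Dcn and Cdkn1c were highest of their group in the second library of Bmal1 siRNA plus TGFb, and without it their changes were 0.97 (adjusted p = 0.00756) and 0.496 (adjusted p = 0.0229), both still called. Leaving out the second library of Bmal1 siRNA plus TGFb, or the first of scrambled siRNA plus TGFb, gave 5 calls there in place of 3. Peg3 had 18.6, 16.7 and 15.02 FPKM with Bmal1 siRNA plus TGFb, 11.9, 9.42 and 10.5 FPKM with scrambled siRNA plus TGFb, 20.98, 18.04 and 16.3 FPKM with Bmal1 siRNA plus vehicle, and 17.6, 20.5 and 18.2 FPKM with scrambled siRNA plus vehicle, with scrambled siRNA plus TGFb under all others. The interaction was called for Peg10 (1.04, limma adjusted p = 0.00682) and Peg3 (0.64, adjusted p = 0.0114), with a median over the list of 0.19. None was called under vehicle in limma, where 1 was higher and 1 lower at an unadjusted p under 0.05, Peg10 at -0.63 (adjusted p = 0.0667) and Grb10 at 0.33 (adjusted p = 0.112) nearest, with a median of 0.03. Plagl1 itself had no called siRNA difference in these comparisons, as given above. Igf2 and Mest share 3596 and 912 exon bases with other genes.

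**Figure D4:**
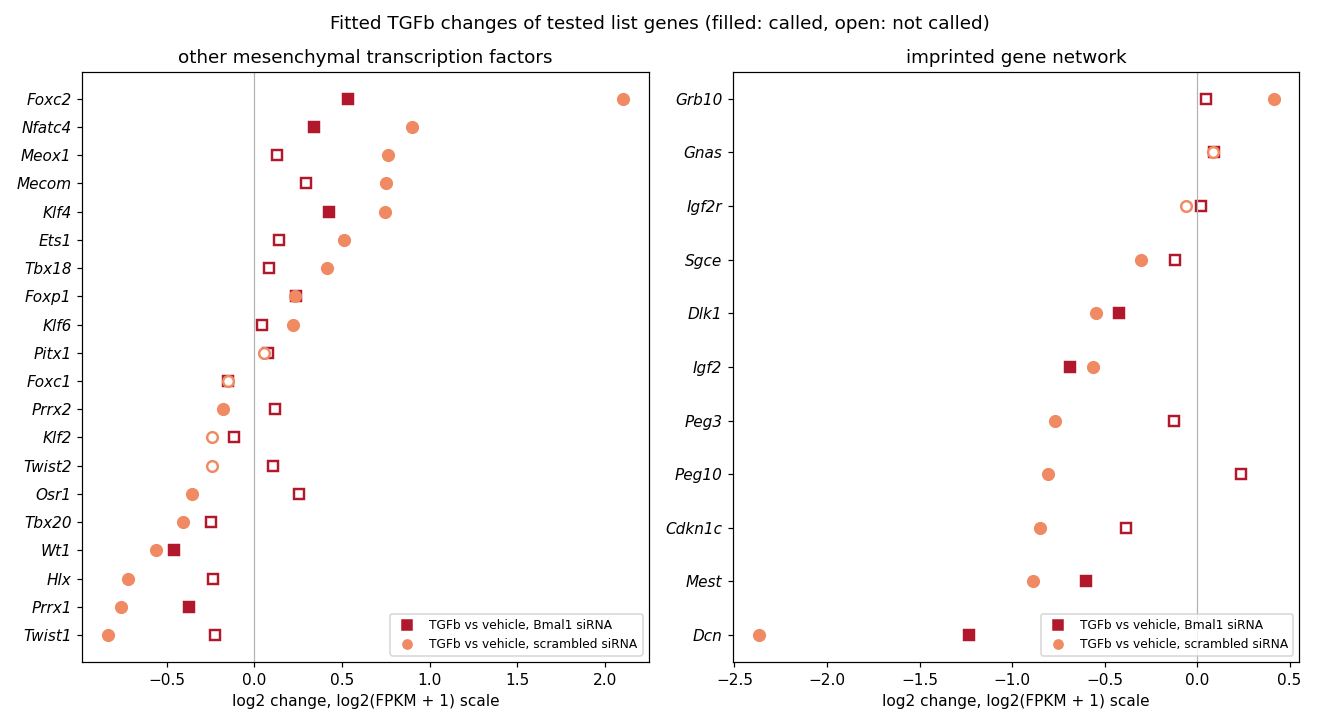
Fitted log2 change with TGFb, on the log2(FPKM + 1) scale, of the 20 tested other mesenchymal transcription factors (left) and the 11 tested imprinted genes (right), squares for Bmal1 siRNA and circles for scrambled siRNA, filled where called. Foxc2 lies at 0.54 and 2.10 and Dcn at -1.23 and -2.37 with Bmal1 and scrambled siRNA.

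The genes whose pattern was most like each factor's were taken by Pearson's r of log2(FPKM + 1) over the 12 libraries among about 10467 genes at a mean of at least 1 FPKM. The libraries share the TGFb groups, so a high r can come from the group means, and no test is attached. Gata6 was followed most closely by Masp1 (r = 0.998), Sord (0.996) and Myo18a (0.995), and Plagl1 by C1qtnf1 (0.997), C4b (0.995) and Tacc1 (0.993). For Hand2 they were Sumo3 (0.960), Mtus2 (0.947) and Map1lc3b (0.946), and for Nr2f2 Pip5k1c (0.948), Fgfr1op (0.945) and Smarcc2 (0.942). For Irx1 they were Ppp2r5b (0.970), Isg20l2 (0.969) and Mex3d (0.968), for Foxf1 Hap1 (0.953), Nlgn2 (0.952) and Dusp22 (0.927), and for Gata4 Mccc1 (0.939), Gpnmb (0.925) and Pdxk (0.913). The 2 factors with no called change had looser matches, Zfp870 (0.801), Dhodh (0.752) and Zfp691 (0.743) for Lhx2, and Exo1 (0.834), Trmt1l (0.791) and Shld2 (0.783) for Nr2f1.

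In the mm10 annotation the other factors lie at chr13:71957921-71963723 (Irx1, minus strand), chr2:38339281-38369733 (Lhx2, plus), chr14:63198922-63271692 (Gata4, minus), chr18:11052064-11085635 (Gata6, plus), chr10:22817281-22820174 (Tcf21, minus), chr13:78188973-78199757 (Nr2f1, minus), chr7:70351944-70366735 (Nr2f2, minus), chr8:121084386-121088144 (Foxf1, plus) and chr10:13060504-13131694 (Plagl1, plus). Beside Hand2 and Nr2f2, small parts of the exons of Gata6, Nr2f1, Foxf1 and Plagl1, 38 to 123 bases, overlap another gene on the other strand. Sequence shared with other transcripts, as the share of 50-base words found elsewhere, was 15.8% for Hand2, 7.35% for Nr2f2, 2.07% for Foxf1, 1.30% for Nr2f1 and 0.682% for Gata6 and 0% for the other 5.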

How the data were processed

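The sources used here give no RNA selection, library kit or read length. Per the labels' protocols, RNA was extracted with 1 of 2 kits by sample abundance, samples with an RNA integrity number under 6.0 were discarded, and libraries were built at BGI, and which kit served which library is not stated. The authors deposited 1 table of FPKM values per gene, named as such in its header. Per the submitters' processing notes, the build was mm10, and the tools listed, with no role for any, were RSEM, DESeq2, Bowtie2 2.2.5 and HISAT2 2.0.4, so strand use and the treatment of reads shared by genes are unknown. Of 16290 lines, 555 without an identifier (1.30% to 1.46% of a library's FPKM) and 15 repeats were left out.

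From these values, log2(FPKM + 1) was fitted for genes averaging 0.5 FPKM or more in limma 3.58.1 (R 4.3.3) with group means over all 12 libraries and an intensity trend, with 8 residual and about 5 prior degrees of freedom. The 4 comparisons and the interaction are two-sided, and p-values were adjusted by Benjamini-Hochberg over all 11208 genes. Percent changes are of mean FPKM. On simulated data the fit recovered 97% to 100% of genes changed by 1 on the log2 scale, and of those changed by 0.5 it recovered 82% to 88% in the 4 comparisons and 64% for the interaction. Smaller changes were not simulated. The simulated libraries were independent, with the same spread in all groups, no outlying library and 200 changed genes, so these rates need not hold for the real comparisons. The members and the gene lists were chosen with earlier results of these data known. All members are named. The genes named from each other list are, per comparison, at most the 4 called ones that changed most, or the 2 of smallest p where none was called, beside some marker and family levels chosen after their values were seen. Positions and exon overlaps are from the mm10 annotation, and promoter sequences from RefSeq on GRCm38.p6. Depth was estimated from the steps of low FPKM values of single-transcript genes, assuming 150-base fragments, and is rough. Alternatives were other pseudocounts (0.1 and 5), filters (none, and a mean of 2 FPKM), scalings, array weights, no trend, fits of only the groups compared, a replicate block and libraries left out. DESeq2 was not run, since no counts were used here.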

Additional observations from a re-analysis of the deposited data

Results flagged for a closer look

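The TGFb response differed between siRNAs, by the interaction term of limma, for 3 of the 9 tested factors, 2 of the 9 tested family members, 3 of the 14 tested partner proteins, 10 of the 20 other tested mesenchymal factors and 2 of the 11 tested imprinted genes. Over all genes this term called 14.4%. Each value is the log2 change with TGFb under Bmal1 siRNA minus that under scrambled siRNA. For the factors it was 0.85 for Hand2, 0.96 for Gata6 and 0.36 for Nr2f2. Among family members it was -0.39 for Gata3 and 0.26 for Nr2f6. Among partner proteins it was -0.48 for Lmo4, 0.41 for Ssbp4 and 0.23 for Ldb1. Among other mesenchymal factors the 4 values of largest size were -1.57 for Foxc2, -0.64 for Meox1, 0.61 for Osr1 and 0.61 for Twist1. Among imprinted genes it was 1.04 for Peg10 and 0.64 for Peg3.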

How the results depend on the processing

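No call on a factor changed direction under any alternative. Under vehicle, the number of factors called between siRNAs, 2 on the main settings, was 0 with no filter on low values, 1 with libraries scaled to equal totals, 1 without limma's trend, 3 with array weights, and 0 to 2 when each library was left out in turn. TGFb with Bmal1 siRNA called 3 factors and 6 with array weights, whose estimation stopped before it converged. Over all 11208 genes, array weights called 5513 for TGFb with Bmal1 siRNA in place of 2128. Between siRNAs under vehicle, 1490 of all genes were called with array weights and 7 with no filter, in place of 74. Array weights added Hand2, Foxf1 and Nr2f2 for TGFb with Bmal1 siRNA, Nr2f2 between siRNAs under vehicle, and Gata4 both under TGFb and for the interaction. The cause of these differences was not tested. Of the named list genes not yet described so, leaving out 1 library lost the call of Zfpm1 for TGFb with Bmal1 siRNA in 5 of 12 fits, of Dcn and Tcf3 there in 2 each (the third library of Bmal1 siRNA plus TGFb, or the second of Bmal1 siRNA plus vehicle), and of Nr2f6 for TGFb with scrambled siRNA in 4. Without the second library of Bmal1 siRNA plus TGFb, Hlx, Prrx1, Zfpm1 and Peg10 were called under vehicle (adjusted p = 0.0145 to 0.0458). The log2 change with TGFb in Bmal1 siRNA cells was then 0.93 for Lhx6, -0.58 for Wt1, -0.79 for Igf2 and 0.55 for Irx1. In that fit, Bmal1 siRNA under TGFb gave 0.55 for Prrx1, and the interaction of Peg10 was 1.14. Counts over all genes moved more: under vehicle from 74 to between 2 and 473 with 1 library left out and to between 7 and 1490 with other settings, for TGFb with Bmal1 siRNA from 2128 to between 1166 and 3260 and between 1642 and 5513, for Bmal1 siRNA under TGFb from 2596 to between 1492 and 4914 with other settings, and for the interaction from 1612 to between 991 and 1871 and between 1272 and 3723. The depth is not recorded in the table, and Tcf21 and Nr2f1 are too low for a comparison.

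Replicate numbers do not pair the libraries in the labels. Same-numbered libraries of different groups had correlations of their deviations from -0.16 to 0.47, with a median of 0.076, over 0.1 in 8 of 18 pairs. Those with different numbers had -0.41 to 0.24, with a median of -0.067, over 0.1 in 7 of 36 pairs. Of the 12 libraries, 5 correlated best with their own number. With the replicate block, 3 factors were called for TGFb with Bmal1 siRNA and 7 with scrambled siRNA, 4 for Bmal1 siRNA under TGFb and 2 under vehicle, and 3 for the interaction, the counts of the fit without it. Over all genes the block called 540 under vehicle in place of 74, and of the family members 4 in place of 1, Foxf2 among them (adjusted p = 0.000428).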
